A study of Homo sapiens with 3 samples.

Results

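The genes for the proteins of the cytosolic ribosome were followed in KYSE510 cells after knockdown of DAZAP1. Members were the protein coding genes whose symbol starts with RPL or RPS and goes on as in the standard names of ribosomal proteins, with a mean of at least 1 CPM (read counts scaled to a common library total) over the libraries. Of 84 genes with such a name, 80 passed, out of 12994 genes tested and 34908 in the table. They were 49 genes of the large (60S) and 31 of the small (40S) subunit. As background, most of these proteins are part of a ribosomal subunit built on ribosomal RNA in the nucleolus, and most are needed in equal amounts. Their mRNAs typically start with a C followed by a run of pyrimidines, the terminal oligopyrimidine (TOP) tract, through which the kinase mTORC1 and the RNA-binding protein LARP1 control their translation.

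KYSE510 is an established cell line of esophageal squamous cell carcinoma (ESCC). The groups were cells transfected with NC RNA, a negative control duplex, with siDAZ1-1 or with siDAZ1-2, both siRNAs against the RNA-binding protein and splicing regulator DAZAP1. Total RNA was sequenced with 1 library per condition, so no value has a replicate, no test was possible, and every difference below compares libraries. Library totals were 14283061 counted reads for NC RNA, 14155792 for siDAZ1-1 and 14167566 for siDAZ1-2.

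DAZAP1 had 3170 reads in the NC RNA library, 1081 after siDAZ1-1 and 1647 after siDAZ1-2, and its log2 ratio to NC RNA was -1.59 (95% interval -1.69 to -1.49) with siDAZ1-1 and -0.99 (95% interval -1.08 to -0.90) with siDAZ1-2. The target was thus lower in both siRNA libraries, at 33.2% and 50.4% of the NC RNA level. All intervals here cover counting error only (exact Clopper-Pearson). Markers of squamous epithelium were in part as the label has them. KRT5, a basal keratin, had 9714, 10331 and 9672 reads in the order NC RNA, siDAZ1-1 and siDAZ1-2, and TP63, the squamous lineage factor, had 3997, 2820 and 3443. KRT14 had 957, 1282 and 935 reads, KRT17 had 1197, 1155 and 651 and KRT6A had 323, 283 and 194, whereas SOX2 had 5, 0 and 0 reads, where 0 reads leave room for up to 0.212 CPM in either siRNA library and 0.210 CPM for NC RNA (3 counts). The 4 glandular markers together had 25, 28 and 16 reads, nearly all on MUC2, with CDX2 at 0. Of the leukocyte markers, CD3E had 45, 28 and 46 reads and PTPRC had 0, 2 and 3. Of the endothelial markers PECAM1 was not analysed here, and VWF had 63, 51 and 23 reads. Of the fibroblast markers, COL1A1 had 369, 495 and 591 reads, while DCN and COL1A2 were at or near 0.

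Ribosomal protein genes took a larger share of the reads with siDAZ1-1 and a smaller one with siDAZ1-2. The 80 genes together held 309506 reads with NC RNA, which is 2.17% of the library (95% interval 2.16 to 2.17). With siDAZ1-1 they held 344983 reads or 2.44% (2.43 to 2.44), and with siDAZ1-2 279879 reads or 1.98% (1.97 to 1.98). The NC RNA library thus lay between the siRNA libraries, and the 3 shares were further apart than counting error. These shares need no scaling between libraries. The reads on large subunit genes divided by those on small subunit genes came to 1.46 for NC RNA, 1.48 for siDAZ1-1 and 1.54 for siDAZ1-2. In bulk RNA, a change in the number of cells that express a gene and a change in its RNA per cell cannot be told apart.

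Levels were compared between genes as RPKM, here the CPM on library sizes corrected by TMM (a scaling by the genes that differ least) divided by the exon length in kilobases. With NC RNA the members ranged from 0.274 to 534 with a median of 47.97. With siDAZ1-1 the range was 0.623 to 538 (median 58.3), and with siDAZ1-2 it was 0.649 to 473 (median 47.3). The members, most of whose products are needed in equal amounts, therefore differed by over 2 orders of magnitude in these counts. Among the highest by mean level were RPL8, a large subunit protein next to the peptidyl transferase center, then RPS4X, RPL3 and RPL41. The level of RPL8 was 534 in the NC RNA library, 538 after siDAZ1-1 and 473 after siDAZ1-2. That of RPS4X was 315 in the NC RNA library, 320 after siDAZ1-1 and 263 after siDAZ1-2. RPL3, which also lies near the peptidyl transferase center, had 273 in the NC RNA library, 276 after siDAZ1-1 and 208 after siDAZ1-2. RPL41, the smallest ribosomal protein, had 237 in the NC RNA library, 293 after siDAZ1-1 and 214 after siDAZ1-2. All 4 were lowest with siDAZ1-2, and for RPL8 the log2 ratio of siDAZ1-1 to siDAZ1-2 changed sign, from 0.18 to -0.12, when the trend with GC content and length was removed. Per kilobase of the longest coding transcript in place of all exons, the median of the members was 111 in place of 49.3, averaged over the libraries.

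Among the lowest members were RPS10, RPS28, RPL36A and RPL39. RPS10 had 9 reads in the NC RNA library, 21 after siDAZ1-1 and 22 after siDAZ1-2, the fewest of any member. RPS28 had 44, 60 and 32 reads in the same order, RPL36A had 163, 181 and 145 and RPL39 had 76, 92 and 97. RPS10, at a mean of 1.22 CPM, was the member just inside the threshold. Just outside it was RPL3L, the striated muscle form of RPL3, at 0.610 CPM with 11, 9 and 6 reads. Also outside were RPL10L with 1, 1 and 1 reads and RPL39L with 0, 2 and 0. Some members share exons on the same strand with a readthrough gene. This holds for 39.4% of the exon length of RPS10 (with RPS10-NUDT3), 24.8% of that of RPL17 (with RPL17-C18orf32) and 8.40% of that of RPL36A (with RPL36A-HNRNPH2). Of the 80 members, 9 had such an overlap with any annotated gene, and reads in shared exons may have been counted on neither gene or on the other one.

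**Figure D1:**
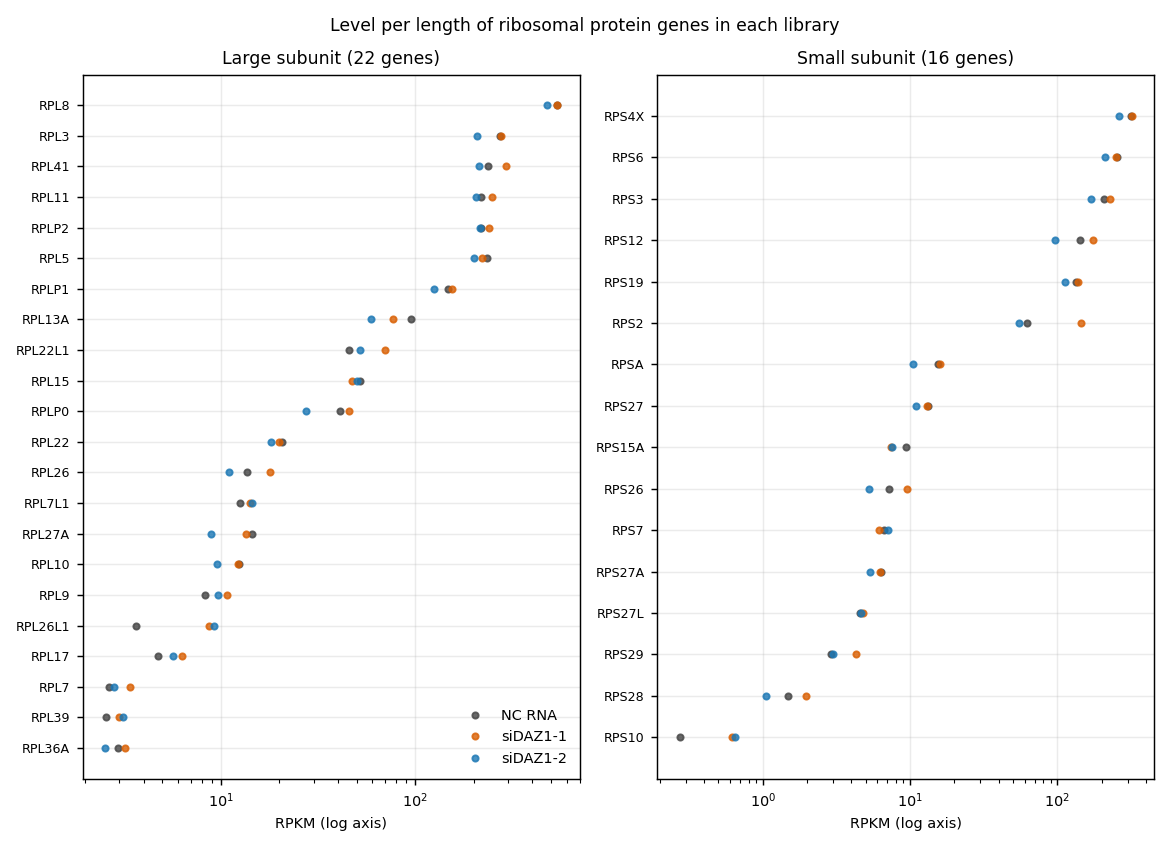
Level per length of the members described in the text in RPKM, TMM-scaled CPM per kilobase of exon (horizontal log axis), with large subunit genes on the left and small subunit genes on the right, ordered by mean level. Each point is 1 library, and RPL8 stands at the top of the large subunit while RPS10 stands at the bottom of the small subunit.

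Reads were also counted on processed pseudogenes, which are copies of the mRNA of ribosomal protein genes inserted elsewhere in the genome and nearly identical to it. The origin of these reads was not tested. The table held 1127 annotated processed pseudogenes of these genes, 401 of them with reads. They held 221320 reads for NC RNA, 235379 for siDAZ1-1 and 183484 for siDAZ1-2, which is 41.7%, 40.6% and 39.6% of the reads on members and pseudogenes together. The 20 pseudogenes with the most reads held 85.96% of them. With the pseudogenes added, the share of the reads was 3.72% for NC RNA, 4.10% for siDAZ1-1 and 3.27% for siDAZ1-2, in the same order as for the genes alone.

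The members fell into distinct kinds by this measure. In 28 of 80, at least 50% of the reads of the gene and its processed pseudogenes lay on the pseudogenes, in 44 it was under 5%, and 8 lay between. RPL7 had 107, 142 and 118 reads against 13825, 14275 and 13630 on its pseudogenes, in the order NC RNA, siDAZ1-1 and siDAZ1-2. For RPL13A the pseudogene RPL13AP5 alone had 23281, 26331 and 18160 reads, against 3154, 2592 and 2010 on the gene. At the other end, RPS3 had 17095, 19034 and 14399 reads against 3, 4 and 2 on pseudogenes, and RPL8 had none on pseudogenes. The first group had a median mean level of 12.7 and the second of 98.95 RPKM. A low level of a member with reads on its pseudogenes is therefore uncertain, since how reads that match both were assigned was not stated, and its part in the levels was not tested.

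**Figure D2:**
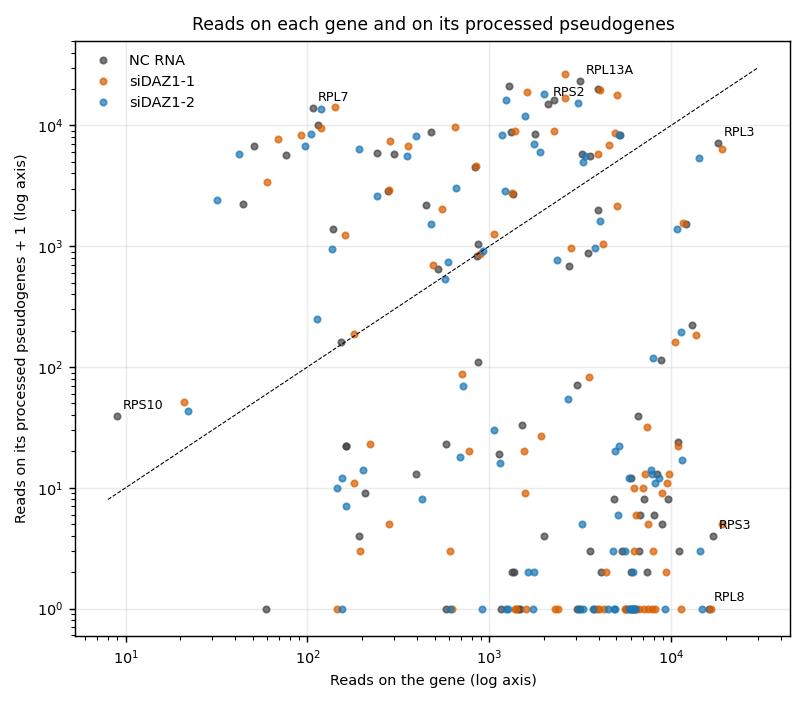
Reads counted on each member (horizontal log axis) against the summed reads on its processed pseudogenes plus 1 (vertical log axis), with 1 point per member and library and a dashed line of equality. RPL7 and RPL13A lie above the line in every library, and RPS3 and RPL8 lie near the bottom.

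The members share a feature at their start that the choice by name did not use. Of the 80 members, 66 had an entry in the RefSeq table of start sites (GRCh38.p14). A C at the annotated start followed by at least 4 pyrimidines, the form of a TOP tract, was found in 43 of these 66 (65.2%), against 1104 of all 27305 genes in the table (4.04%) and 5.45% of the tested genes in it. Within 10 bases on either side of the start, such a tract began in 56 of 66 members (84.8%) and in 33.3% of all genes and 33.5% of tested genes. Of the 66 members, 23 had no tract at the start, among them RPS26, RPS28, RPS29, RPL3, RPL10, RPL11 and RPS27A, whose windows are not shown. The start windows of some other members with large differences between the libraries or central roles are shown here. Apart from RPL26L1 and RPS27L, all of those shown have a tract at the start. Each has 15 bases before the annotated start and 15 from it, 5' to 3', with the tract in capitals where it begins at the start.
RPL13A: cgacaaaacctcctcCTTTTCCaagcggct
RPLP0: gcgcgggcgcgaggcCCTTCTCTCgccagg
RPS12: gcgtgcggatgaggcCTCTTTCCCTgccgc
RPSA: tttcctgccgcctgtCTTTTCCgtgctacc
RPL27A: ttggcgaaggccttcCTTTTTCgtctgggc
RPS6: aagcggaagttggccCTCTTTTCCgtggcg
RPS3: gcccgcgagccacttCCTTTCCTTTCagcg
RPL26: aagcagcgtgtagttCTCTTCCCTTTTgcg
RPL22: tagttcgctcacctcCCTTTCTaactccgc
RPL22L1: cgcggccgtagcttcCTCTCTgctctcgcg
RPL26L1: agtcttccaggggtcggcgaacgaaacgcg
RPS27: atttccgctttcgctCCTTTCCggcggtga
RPS27L: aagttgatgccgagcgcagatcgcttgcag

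The positions of these windows on GRCh38.p14 are RPL13A chr19:49487593-49487622 on the + strand, RPLP0 chr12:120201097-120201126 on the - strand, RPS12 chr6:132814554-132814583 on the + strand, RPSA chr3:39406705-39406734 on the + strand, RPL27A chr11:8682777-8682806 on the + strand, RPS6 chr9:19380222-19380251 on the - strand. The others are RPS3 chr11:75399503-75399532 on the + strand, RPL26 chr17:8383179-8383208 on the - strand, RPL22 chr1:6199581-6199610 on the - strand, RPL22L1 chr3:170870181-170870210 on the - strand, RPL26L1 chr5:172958714-172958743 on the + strand, RPS27 chr1:153990747-153990776 on the + strand and RPS27L chr15:63157463-63157492 on the - strand. Each window spans the end of the promoter and the start of the 5' untranslated region in the first exon. The copies RPL26L1 and RPS27L had no tract at the start, whereas the members they resemble, RPL26 and RPS27, had one, and RPL22L1 had one like RPL22. The 43 members with a tract at the start had a median log2 ratio to NC RNA of 0.17 after siDAZ1-1 and -0.21 after siDAZ1-2, and the 23 without had 0.18 and -0.07. Among tested genes that are not members, 473 had such a tract, with medians of -0.02 and -0.07. In the 300 bases from 250 before to 50 after the start, both strands, CCGGAAGT (a word of ETS factors such as GABP) stood in 11 of 66 members (16.7%) and in 9.15% of the tested genes in that table (4.43% of all genes). AAGATGGC (a word of YY1) stood in 7 (10.6%) of the members and in 5.52% of tested genes (3.03% of all genes). A match is a description of the sequence and not a site.

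The comparison of siDAZ1-1 with NC RNA asked how the members' mRNA differed when DAZAP1 was lowest. With siDAZ1-1, 64 of 80 members lay above their NC RNA level and 16 below it, with a median log2 ratio of 0.18 (quartiles 0.02 and 0.31). With the reads of their pseudogenes added, the median was 0.10, with 60 members higher and 20 lower. Over all 12994 tested genes the median was 0.00 and 49.95% were higher. A log2 ratio of 0.32, which is a ratio of 5 to 4, was taken as the size from which genes were counted in either direction. Past 0.32 were 18 members (22.5%), against 19.2% of all tested genes. Past -0.32 was 1 member, against 20.7% of all tested genes. The share of members past the fold on the upper side was thus near that of all genes, and the members stood apart from all genes on the lower side. At least 2-fold higher were 3 members against 1.58% of all genes, and at least 2-fold lower 0 members against 1.88%. The median of large subunit genes was 0.19 and that of small subunit genes 0.11. The counting interval lay above 0 in 42 members, below 0 in 5 and held 0 in 33, against 28.2% of all tested genes above 0 and 29.4% below 0. Intervals are narrower at more reads, and of the 4153 tested genes with a mean of at least 1000 reads, 34.6% lay above 0 and 42.7% below, against 63.0% and 7.41% of the 54 members at that depth.

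The 5 highest log2 ratios with siDAZ1-1 were those of RPL26L1, RPS2, RPS10, RPL22L1 and RPS29. RPL26L1, a copy of RPL26, had 59 reads in the NC RNA library, 145 after siDAZ1-1 and 154 after siDAZ1-2, a log2 ratio of 1.23 (95% interval 0.81 to 1.72). RPS2, near the mRNA entry of the small subunit, had 2092, 5018 and 1892 reads in the same order, a ratio of 1.22 (95% interval 1.15 to 1.30). The ratio of RPS10 was 1.03 (95% interval 0.00 to 2.50), an interval that held 0 at these few reads, and with the reads of its pseudogenes added it was 0.54 (95% interval 0.01 to 1.12). RPL22L1 had 1479, 2310 and 1729 reads and a ratio of 0.60 (95% interval 0.51 to 0.70). RPS29 had 397, 609 and 425 reads and a ratio of 0.58 (95% interval 0.39 to 0.77). Apart from RPS10, these were higher with siDAZ1-1 than with NC RNA by more than counting error.

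The lowest log2 ratios with siDAZ1-1 were closer to 0. RPS15A had 870 reads in the NC RNA library, 706 after siDAZ1-1 and 720 after siDAZ1-2, a log2 ratio of -0.34 (95% interval -0.48 to -0.19), and was the member past -0.32. RPL13A, known for its release from the ribosome to block translation of inflammatory mRNAs, had 3154, 2592 and 2010 reads in the same order and a ratio of -0.32 (95% interval -0.40 to -0.25), just short of that size before rounding. With the reads of its pseudogenes added the sign turned, to 0.09. RPL15 had 5228, 4893 and 5198 reads and a ratio of -0.13 (95% interval -0.19 to -0.08), or -0.04 with pseudogene reads added. RPS7 had 520, 493 and 568 reads and -0.11 (95% interval -0.30 to 0.07), a difference not detectable at this depth.

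The same question was asked of siDAZ1-2, in a comparison that uses the same NC RNA library. With siDAZ1-2, 58 of 80 members lay below their NC RNA level and 22 above it, with a median log2 ratio of -0.18 (quartiles -0.31 and 0.02). Over all tested genes the median was -0.01 and 48.9% were higher. Past -0.32 were 17 members (21.2%), against 23.5% of all tested genes. Past 0.32 were 2 members, against 20.4% of all tested genes. Scaled by total library size, these counts were 12 lower, against 19.8% of all tested genes, and 4 higher, against 24.4%. The share past the fold was near that of all genes on the lower side and below it on the upper side, the reverse of the picture with siDAZ1-1. At least 2-fold higher were 2 members against 2.3% of all genes, and at least 2-fold lower 0 against 3.23%. The median of large subunit genes was -0.09 and that of small subunit genes -0.26. The counting interval lay below 0 in 44 members, above 0 in 8 and held 0 in 28, against 31.7% of all tested genes below 0 and 29.2% above 0. Of the tested genes with a mean of at least 1000 reads, 40.9% lay below 0 and 36.6% above, against 68.5% and 9.26% of the members at that depth.

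The 5 lowest log2 ratios with siDAZ1-2 were those of RPL27A, RPL13A, RPLP0, RPSA and RPS12. RPL27A had 1447 reads in the NC RNA library, 1382 after siDAZ1-1 and 917 after siDAZ1-2, a log2 ratio of -0.70 (95% interval -0.82 to -0.58), and had no read on a pseudogene. RPL13A, with the reads given above, had a ratio of -0.69 (95% interval -0.78 to -0.61). RPLP0, the base of the ribosomal stalk, had 2273, 2618 and 1570 reads in the same order and -0.58 (95% interval -0.67 to -0.49). All of these were lower with siDAZ1-2 by more than counting error, as were the next ones. RPSA, also known as the laminin receptor precursor, had 854, 893 and 591 reads and -0.57 (95% interval -0.73 to -0.42). RPS12 had 1518, 1922 and 1063 reads and -0.56 (95% interval -0.67 to -0.45). With pseudogene reads added, RPL13A was at -0.43, RPLP0 at -0.49 and RPSA at -0.39, smaller in size and still below 0.

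On the upper side with siDAZ1-2 stood RPL26L1 with a log2 ratio of 1.31 (95% interval 0.90 to 1.80) and RPS10 with 1.09 (95% interval 0.07 to 2.55), the 2 members past 2-fold. With the reads of its pseudogenes added, RPS10 was at 0.39 (95% interval -0.17 to 0.98), under 2-fold and with an interval that held 0. The next were RPL39 with 0.30 (95% interval -0.14 to 0.76), RPL17 with 162, 222 and 202 reads and 0.27 (95% interval -0.03 to 0.58), and RPL9 with 579, 770 and 693 reads and 0.21 (95% interval 0.05 to 0.38). The intervals of RPL39 and RPL17 held 0, and that of RPL9 did not. With the reads of its pseudogenes added, RPL39 was at 0.20 (95% interval 0.15 to 0.25), an interval above 0.

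**Figure D3:**
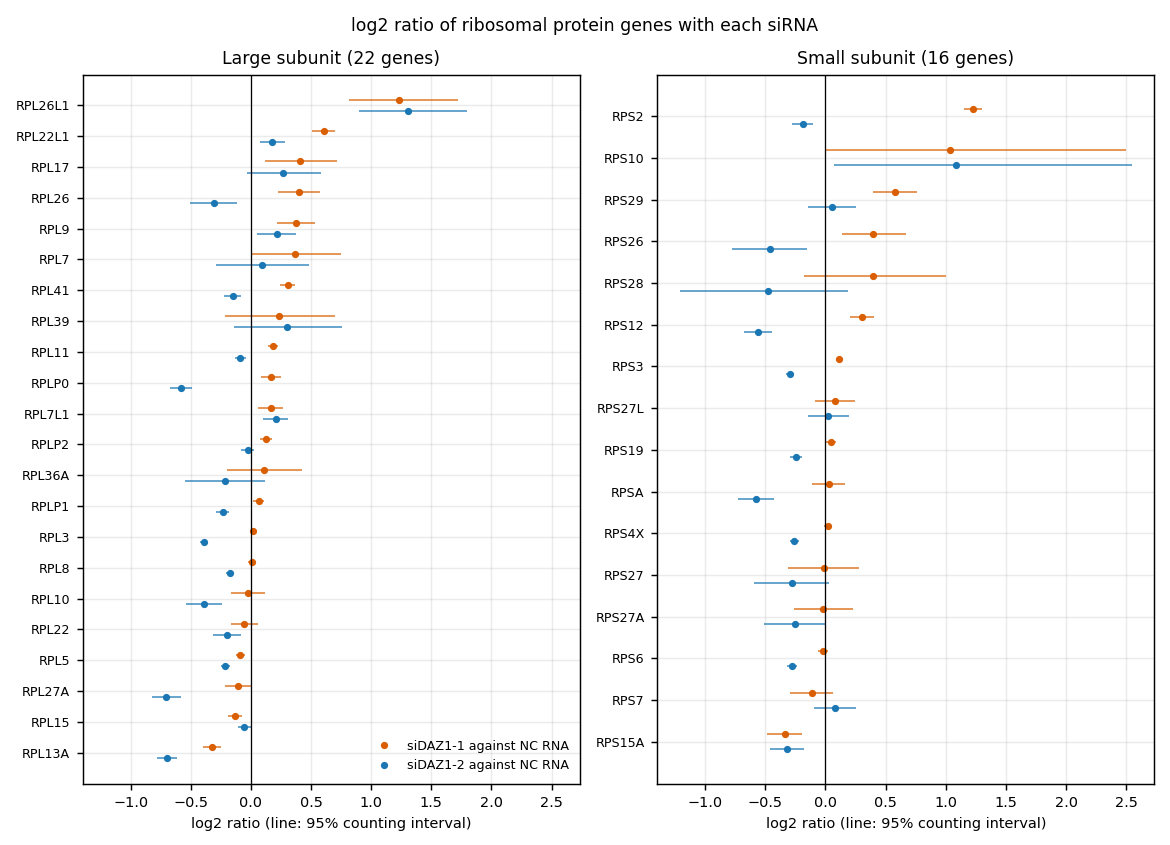
log2 ratio to NC RNA of the members described in the text (horizontal axis) with siDAZ1-1 (orange) and siDAZ1-2 (blue), by subunit and ordered by the ratio with siDAZ1-1. Lines are 95% counting intervals, and the medians over all 80 members are 0.18 with siDAZ1-1 and -0.18 with siDAZ1-2.

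Set directly against each other, without the NC RNA library, the siRNA libraries differed in most members. With siDAZ1-1, 72 of 80 members were higher than with siDAZ1-2 and 8 were lower, with a median log2 ratio of 0.31 (quartiles 0.20 and 0.43). Over all tested genes the median was 0.00 and 50.3% were higher. Past 0.32 were 39 members (48.8%), against 22.2% of all tested genes, and past -0.32 were 0 members against 20.6%. The counting interval lay above 0 in 64 members, below 0 in 3 and held 0 in 13, against 30.3% of all tested genes above 0 and 29.8% below 0. At a mean of at least 1000 reads, the shares above 0 were 94.4% of the members and 36.4% of tested genes, and those below 0 were 3.70% and 42.1%. The median was 0.30 for large and 0.34 for small subunit genes. The spread of the members (SD over genes 0.252) was smaller than that of all tested genes (0.479), which include more genes with few reads. Among the 4153 tested genes with a mean of at least 1000 reads, the median was -0.02 and the SD 0.385, and for the 54 members at that depth they were 0.34 and 0.225.

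The 5 members with the largest difference between the siRNA libraries were RPS2, RPS28, RPS12, RPS26 and RPLP0, all higher with siDAZ1-1. RPS2 had a log2 ratio of siDAZ1-1 to siDAZ1-2 of 1.41 (95% interval 1.34 to 1.49). RPS28, at few reads, had 0.87 (95% interval 0.27 to 1.58), and with the reads of its pseudogenes added 0.52. RPS12 had 0.86 (95% interval 0.75 to 0.97) and RPLP0 had 0.74 (95% interval 0.65 to 0.84), or 0.53 with pseudogene reads added. RPS26, which contacts mRNA at the exit channel, had 207 reads in the NC RNA library, 281 after siDAZ1-1 and 155 after siDAZ1-2 and a ratio of 0.86 (95% interval 0.58 to 1.16). The intervals of all 5 lay above 0. The members with at least 50% of the reads of gene and pseudogenes on the pseudogenes had a median of 0.32 and those under 5% had 0.33. The pseudogene reads alone had a median of 0.32 over the 36 members with at least 50 such reads in both libraries. Against NC RNA their median was 0.04 after siDAZ1-1, closer to 0 than the 0.18 of the genes, with 22 above 0 and 14 below, and -0.23 after siDAZ1-2.

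GC content moved with the difference between the siRNA libraries. Over all tested genes, the log2 ratio of siDAZ1-1 to siDAZ1-2 had a Pearson correlation across genes of 0.40 with the GC content of the longest transcript. Over the 80 members it was 0.28, where genes are not independent replicates. For siDAZ1-1 against NC RNA the same correlations came to 0.36 and 0.08, and with siDAZ1-2 in place of siDAZ1-1 to -0.06 and -0.16. The median GC content was 47.9% for the members and 48.3% for all tested genes. With the trend of GC content and length removed, the median of the members was 0.28 for siDAZ1-1 against siDAZ1-2, and the ratios to NC RNA had medians of 0.13 after siDAZ1-1 and -0.19 after siDAZ1-2, each with the sign it had before.

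**Figure D4:**
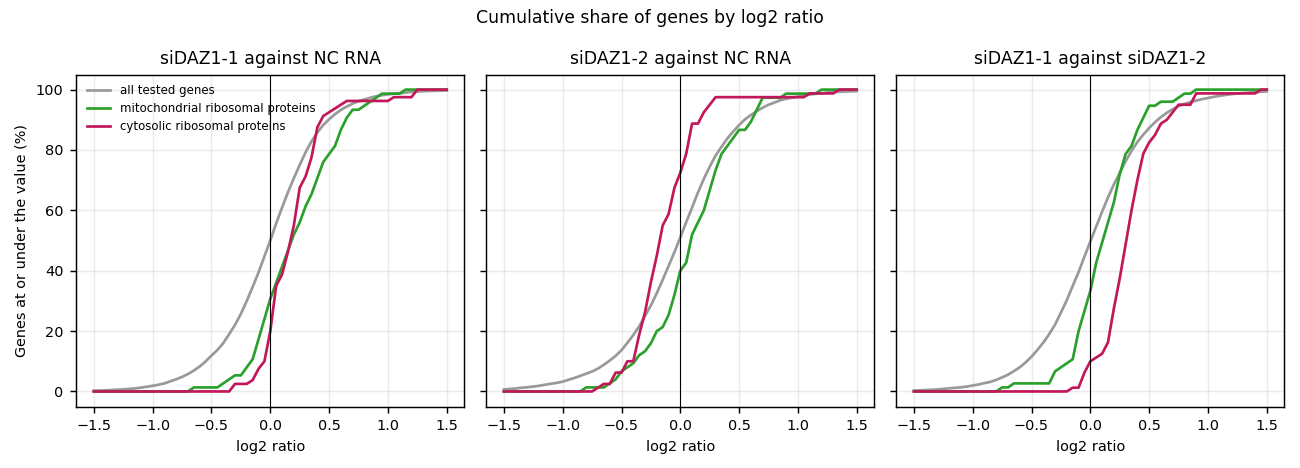
Share of genes (vertical axis, percent) at or under each log2 ratio (horizontal axis) for the 80 cytosolic ribosomal protein genes, the 75 mitochondrial ribosomal protein genes and the 12994 tested genes, in each of the 3 comparisons. The cytosolic genes lie to the right of all tested genes when siDAZ1-1 is compared with siDAZ1-2, at a median of 0.31.

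By role, the ratios differed also within single functional groups. Of the stalk proteins, which recruit the translational GTPases, RPLP1 had 6726 reads in the NC RNA library, 7220 after siDAZ1-1 and 5894 after siDAZ1-2, and RPLP2 had 5939, 6660 and 6015. Their log2 ratios with siDAZ1-1 were 0.06 and 0.13, and with siDAZ1-2 -0.24 and -0.03, so neither passed 0.32 in either direction, as RPLP0 did with siDAZ1-2. The ratio of RPLP2 with siDAZ1-1 was -0.08 after removal of the GC and length trend, a turn of its sign. RPL5 and RPL11 form a particle with 5S ribosomal RNA that can also bind MDM2, the ubiquitin ligase of p53. RPL5 had 12085, 11661 and 10751 reads and ratios of -0.09 (95% interval -0.13 to -0.05) and -0.21 (95% interval -0.25 to -0.18), and RPL11 had 8076, 9408 and 7840 reads and 0.18 (95% interval 0.14 to 0.23) and -0.09 (95% interval -0.13 to -0.04). RPL5 was thus lower in both siRNA libraries than with NC RNA, whereas RPL11 was higher with siDAZ1-1 and lower with siDAZ1-2. For RPL5 with siDAZ1-1 the sign turned, to 0.23, after removal of the GC and length trend.

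In the small subunit, RPS6, the substrate of the S6 kinases, had 9591 reads in the NC RNA library, 9710 after siDAZ1-1 and 8152 after siDAZ1-2, with log2 ratios of -0.02 (95% interval -0.06 to 0.02) and -0.28 (95% interval -0.32 to -0.24). RPS3, which lies at the mRNA entry and also takes part in DNA repair, had ratios of 0.12 (95% interval 0.09 to 0.15) and -0.29 (95% interval -0.33 to -0.26). RPS19, mutated in Diamond-Blackfan anemia, had 7066, 7473 and 6144 reads and ratios of 0.04 (95% interval 0.00 to 0.09) and -0.25 (95% interval -0.30 to -0.20). These 3 shared a level lower with siDAZ1-2 than in either other library. RPS26 had ratios of 0.40 (95% interval 0.14 to 0.67) and -0.46 (95% interval -0.77 to -0.16), on opposite sides of 0. RPS27A, made as a fusion with ubiquitin, had 277, 281 and 240 reads against 2858, 2898 and 2602 on its pseudogenes, with ratios of -0.02 (95% interval -0.26 to 0.23) and -0.25 (95% interval -0.51 to 0.00). In the large subunit, RPL10, a late joining protein, had 834, 843 and 658 reads and ratios of -0.02 (95% interval -0.16 to 0.12) and -0.39 (95% interval -0.54 to -0.24), the second at -0.58 with pseudogene reads added. Of RPL3 and RPL8, near the peptidyl transferase center, RPL3 had ratios of 0.02 and -0.39 and RPL8 of 0.01 and -0.18. After removal of the GC and length trend the ratios with siDAZ1-1 turned their sign, to -0.09 and -0.22, as did those of RPS6, to 0.03, and RPS19, to -0.08. RPL3 stayed lowest with siDAZ1-2, whereas RPL8 was then lowest with siDAZ1-1.

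Of the copies, some differed from the members they resemble by more than counting error and others did not. RPL26L1 made up 11.03% of the reads of RPL26 and RPL26L1 together for NC RNA, 18.4% for siDAZ1-1 and 28.0% for siDAZ1-2. RPL26 itself had 476, 645 and 396 reads and log2 ratios of 0.40 (95% interval 0.23 to 0.57) and -0.31 (95% interval -0.51 to -0.12). With the reads of its pseudogenes added, RPL26 was at 0.10 (95% interval 0.06 to 0.14) and -0.17 (95% interval -0.22 to -0.13), so the size with siDAZ1-1 depends on which reads are counted. With siDAZ1-2 the copy was higher and RPL26 was lower than with NC RNA either way. RPL22L1 made up 52.3%, 63.4% and 58.8% of the reads of its pair, while RPL22 had 1348, 1333 and 1213 reads and ratios of -0.05 (95% interval -0.16 to 0.06) and -0.20 (95% interval -0.31 to -0.08), below the intervals of the copy, which with siDAZ1-2 was at 0.18 (95% interval 0.08 to 0.28). RPL22 had 68.1% of its family's reads on pseudogenes, so the shares of this pair are uncertain, as are those of RPL26 with 94.6%. With those reads added, RPL22 was at -0.05 (95% interval -0.11 to 0.01) with siDAZ1-2, an interval that held 0. RPL7L1, a factor of large subunit assembly, had 1367, 1572 and 1629 reads and ratios of 0.16 (95% interval 0.06 to 0.27) and 0.21 (95% interval 0.10 to 0.31). RPL7 had 0.36 (95% interval 0.00 to 0.75) and 0.09 (95% interval -0.29 to 0.49), so the intervals of this pair overlapped. RPL7 had 99.1% of its family's reads on pseudogenes, and with these added it was at 0.01 (95% interval -0.02 to 0.05) and -0.06 (95% interval -0.10 to -0.03), below the intervals of RPL7L1. Whether this pair differed thus depends on which reads are counted. RPS27L, a p53 target, had 577, 627 and 606 reads and ratios of 0.08 (95% interval -0.08 to 0.25) and 0.03 (95% interval -0.14 to 0.19). RPS27 had 191, 194 and 162 reads and -0.02 (95% interval -0.31 to 0.28) and -0.28 (95% interval -0.59 to 0.03), and the intervals overlapped here too. RPL36AL, a copy of RPL36A that the name rule leaves out, had 1060, 1157 and 1554 reads and ratios of 0.09 (95% interval -0.03 to 0.21) and 0.51 (95% interval 0.39 to 0.62). RPL36A had 0.11 (95% interval -0.20 to 0.43) and -0.21 (95% interval -0.55 to 0.12), so this pair was apart with siDAZ1-2 only. With siDAZ1-2, the 4 copies among the members had ratios above 0, that of RPS27L with an interval that held 0. Of the 76 other members, 18 were also above 0, and their median was -0.19.

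RPS2 stood out because its gene and its pseudogenes gave different pictures. The gene had 2092 reads in the NC RNA library, 5018 after siDAZ1-1 and 1892 after siDAZ1-2, and its processed pseudogenes together 15133, 17745 and 6020 in the same order. RPS2P5 on chromosome 12 had 8295, 10424 and 3497 reads, and RPS2P46 on chromosome 17 had 6643, 7079 and 2431. The gene was high with siDAZ1-1, while the pseudogene counts were low with siDAZ1-2. Pseudogenes held 87.8% of the reads on RPS2 and its pseudogenes for NC RNA, 77.96% for siDAZ1-1 and 76.1% for siDAZ1-2. Summed over both, the log2 ratio to NC RNA came to 0.36 for siDAZ1-1 (95% interval 0.34 to 0.39) and -1.17 for siDAZ1-2 (-1.21 to -1.13), against 1.22 and -0.19 for the gene alone. The size of the RPS2 difference thus depends on which reads are counted, and the order of the libraries, highest with siDAZ1-1 and lowest with siDAZ1-2, does not. RPS2 also shares 14.55% of its exon length on the same strand with the gene AC005363.1, and the part of this overlap in its counts was not tested. The pseudogenes were chosen for mention after their values were seen.

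Other genes of the ribosome and its control were set beside the members. The 75 tested genes of mitochondrial ribosomal proteins, which serve the organelle's own ribosome, had median log2 ratios of 0.18 after siDAZ1-1 and 0.10 after siDAZ1-2. Above their NC RNA level were 52 and 45 of them, against 49.95% and 48.9% of all tested genes. Past 0.32 were 28 and 18 of the 75 (19.2% and 20.4% of all tested genes), and past -0.32 4 and 9 (20.7% and 23.5%). With siDAZ1-1 the mitochondrial and cytosolic medians were close, and with siDAZ1-2 they lay on opposite sides of 0. Translation factors and other genes with TOP mRNAs (12 of 13 listed were tested) had medians of -0.02 after siDAZ1-1 and -0.22 after siDAZ1-2. With siDAZ1-2, 10 of 12 were lower, against 51.1% of all tested genes. Past 0.32 were 1 and 1 of the 12 after siDAZ1-1 and siDAZ1-2 (19.2% and 20.4% of all tested genes), and past -0.32 0 and 4 (20.7% and 23.5%). The median with siDAZ1-1 turned sign with total library size as scaling, to 0.03, and after removal of the GC and length trend, to 0.04. EEF2, the elongation factor of translocation, had 46156 reads in the NC RNA library, 51023 after siDAZ1-1 and 37964 after siDAZ1-2 and ratios of 0.11 (95% interval 0.09 to 0.12) and -0.33 (95% interval -0.35 to -0.31), the first of which turned to -0.04 after removal of that trend. HNRNPA1, a splicing regulator, had 2023, 1820 and 1287 reads and ratios of -0.19 and -0.70, the lowest of the list with siDAZ1-2. EIF3F, a subunit of an initiation factor, had 523, 1104 and 769 reads and ratios of 1.04 and 0.51, the highest of the list with both. TPT1, the translationally controlled tumor protein, had 11266, 9256 and 8140 reads and -0.32 and -0.51, the lowest with siDAZ1-1. Of 13 listed host genes of small nucleolar RNAs with TOP transcripts, 1 was tested, SNHG32, with ratios of 0.03 and -0.37.

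Ribosomal protein genes with other names and the proteins bound to the ribosome varied among themselves. FAU, which encodes a small subunit protein, had 575, 736 and 683 reads and log2 ratios of 0.32 and 0.20. The 5 ribosome-bound factors had medians of -0.04 after siDAZ1-1 and -0.13 after siDAZ1-2. With total library size as scaling, the first turned to 0.02. Of these, 1 and 1 were past 0.32 after siDAZ1-1 and siDAZ1-2 (19.2% and 20.4% of all tested genes), and 2 and 1 past -0.32 (20.7% and 23.5%). RACK1, a scaffold on the small subunit, had 30620 reads in the NC RNA library, 31161 after siDAZ1-1 and 24293 after siDAZ1-2 and ratios of -0.01 (95% interval -0.04 to 0.01) and -0.38 (95% interval -0.40 to -0.35). It was thus lower with siDAZ1-2 than with NC RNA, like RPS3 and RPS19. NACA, of the nascent chain complex, had ratios of -0.41 and -0.16, and EIF6, which keeps the subunits apart, of 0.41 and 0.34.

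Along the route from mTORC1 to TOP mRNAs, the 12 genes had medians of 0.07 after siDAZ1-1 and 0.14 after siDAZ1-2. Of these, 0 and 2 were past 0.32 after siDAZ1-1 and siDAZ1-2 (19.2% and 20.4% of all tested genes), and 2 and 2 past -0.32 (20.7% and 23.5%). MLST8, a subunit of mTORC1, had 814 reads in the NC RNA library, 879 after siDAZ1-1 and 420 after siDAZ1-2 and ratios of 0.07 (95% interval -0.07 to 0.21) and -0.997 (95% interval -1.17 to -0.83). RPS6KB2, an S6 kinase, had 303, 241 and 409 reads and ratios of -0.37 and 0.39, and LARP4, a stabilizer of ribosomal protein mRNAs, had 1878, 1385 and 2186 and -0.48 and 0.17. LARP1, which binds the TOP tract, had 4152, 5168 and 5211 reads and ratios of 0.28 and 0.28, and RPTOR had 0.31 and 0.37. MLST8 was lower with siDAZ1-2 than in the other libraries, RPS6KB2 and LARP4 were lower with siDAZ1-1 than in the other libraries, and LARP1 and RPTOR were higher in both siRNA libraries. TSC2, an inhibitor of mTORC1, had 1843, 2015 and 1510 reads and ratios of 0.09 and -0.33 at the level of the whole gene, which does not measure its splice forms.

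The 8 factors that escort single ribosomal proteins to the nucleus had medians of 0.28 after siDAZ1-1 and 0.24 after siDAZ1-2, with 4 and 3 of 8 past 0.32 (19.2% and 20.4% of all tested genes) and 0 and 0 past -0.32 (20.7% and 23.5%). GRWD1, the chaperone of RPL3, had 584 reads in the NC RNA library, 885 after siDAZ1-1 and 929 after siDAZ1-2 and ratios of 0.56 (95% interval 0.41 to 0.71) and 0.62 (95% interval 0.47 to 0.78). RPS19BP1, which binds RPS19, had 835, 1352 and 986 reads and ratios of 0.66 and 0.19, and PDCD2, the chaperone of RPS2, had 1049, 921 and 999 and -0.23 (95% interval -0.35 to -0.10) and -0.12 (95% interval -0.24 to 0.01). GRWD1 and RPS19BP1 were thus higher in both siRNA libraries and PDCD2 lower with siDAZ1-1, while its interval with siDAZ1-2 held 0. The 8 p53 response genes had medians of -0.31 after siDAZ1-1 and -0.21 after siDAZ1-2, and 4 and 3 of 8 were past -0.32 (20.7% and 23.5% of all tested genes) and 0 and 0 past 0.32 (19.2% and 20.4%). ZMAT3 had 749, 452 and 691 reads and ratios of -0.76 and -0.16, GDF15 had 167, 167 and 80 and -0.04 and -1.09, RRM2B had 802, 495 and 915 and -0.73 and 0.14, and BBC3 had 219, 267 and 239 and 0.25 and 0.08. After removal of the GC and length trend the ratio of BBC3 with siDAZ1-1 was -0.04.

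Transcription factors known to act at promoters of ribosomal protein genes spread widely around medians of 0.04 after siDAZ1-1 and 0.00 after siDAZ1-2. Of these, 2 and 2 were past 0.32 after siDAZ1-1 and siDAZ1-2 (19.2% and 20.4% of all tested genes), and 2 and 2 past -0.32 (20.7% and 23.5%). MYC had 150 reads in the NC RNA library, 432 after siDAZ1-1 and 483 after siDAZ1-2, with log2 ratios of 1.48 (95% interval 1.22 to 1.77) and 1.63 (95% interval 1.37 to 1.92). GABPA, the ETS subunit of GABP, had 907, 357 and 735 reads and ratios of -1.38 (95% interval -1.56 to -1.21) and -0.35 (95% interval -0.49 to -0.21). SP1 had 3240, 2321 and 2236 reads and ratios of -0.52 and -0.58. MYC was thus higher and GABPA and SP1 were lower in both siRNA libraries, while YY1 had 2384, 2438 and 2468 reads and ratios of -0.01 and 0.00. The part of these factors in the members' levels was not tested.

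**Figure D5:**
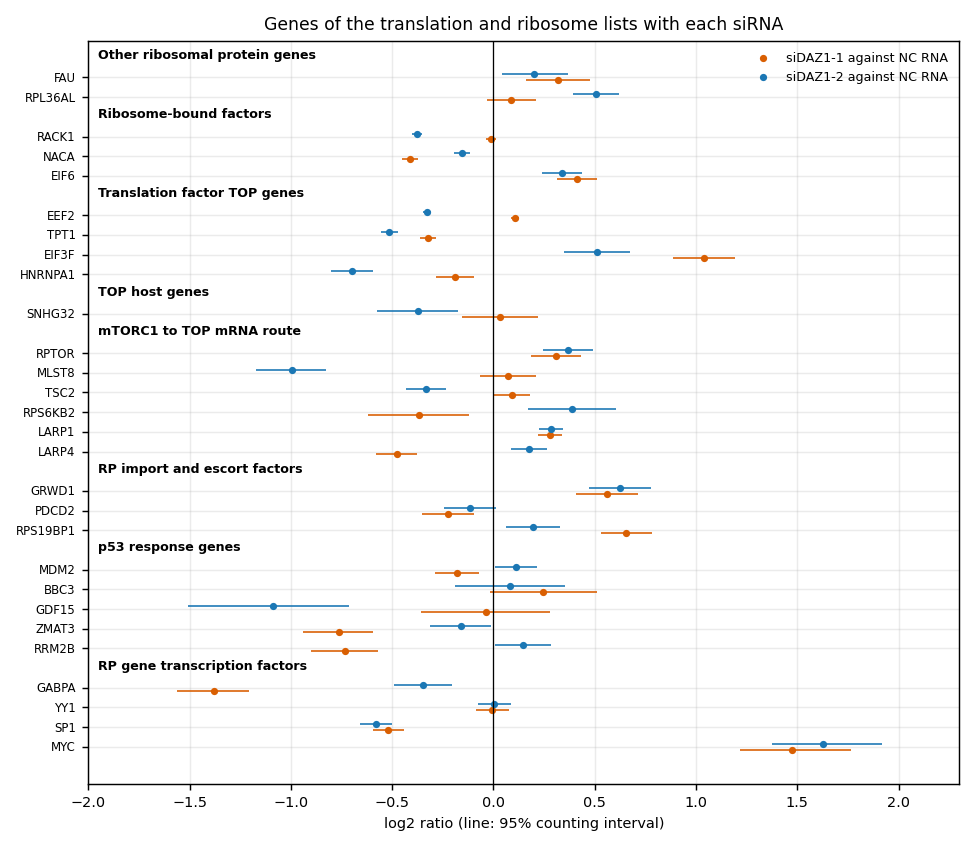
log2 ratio to NC RNA (horizontal axis) of the genes described in the text from the lists of ribosome and translation genes, with siDAZ1-1 (orange) and siDAZ1-2 (blue) and 95% counting intervals as lines. MYC lies furthest to the right at 1.48 and 1.63, and GABPA furthest to the left with siDAZ1-1 at -1.38.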

How the data were processed

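RNA-seq of KYSE510 cells transfected with NC RNA, siDAZ1-1 or siDAZ1-2 gave 1 library each. The deposited values are counts of reads per Ensembl gene, made by the authors with TopHat2 and HTSeq on hg19 (GRCh37), as named in the submitters' processing notes. Versions, use of strand and the handling of reads with several matches were not given in the sources used here, so counts of overlapping genes and of near-identical copies are uncertain. Names, lengths and overlaps came from GENCODE 29 (GRCh38), which held 33299 of 34908 IDs. The other 1609 held 0.715% of the reads. Start windows are RefSeq sequence of GRCh38.p14, and no coordinate of the authors' build was used.

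Tested genes had a mean of 1 CPM or more by library total, which the floors use too. For levels per length and ratios, libraries were scaled by TMM (edgeR 4.0.16, R 4.3.3), and log2 ratios used a prior count of 2, a step tested on simulated data. With 1 library per condition no p-value was computed. Alternatives were DESeq2 1.42.0 size factors, total library size, TMM without the members, other prior counts, filters and thresholds, removal of the GC and length trend (loess over tested genes), pseudogene reads added, and the copies left out. TMM with NC RNA as the reference library, the splits by pseudogene share and by 1000 reads, and both promoter words were chosen after seeing the data.

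The named genes were the 5 members highest and lowest in level, the 5 with the highest and lowest log2 ratio with each siRNA, the 5 with the largest difference between the siRNAs, copies and the members they resemble, members with listed roles, and in each other list the genes with the highest and lowest ratio with each siRNA. EEF2, LARP1, TSC2, YY1 and the named pseudogenes were added after their values were seen. Some genes that these rules name are not reported here. The members and lists were chosen with earlier results of these data known.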

Additional observations from a re-analysis of the deposited data

How the results depend on the processing

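The median log2 ratio of the members kept its sign under 12 alternatives. It lay between 0.10 (pseudogene reads added) and 0.23 for siDAZ1-1 against NC RNA, between -0.19 and -0.12 for siDAZ1-2 against NC RNA, and between 0.28 and 0.33 for siDAZ1-1 against siDAZ1-2. For DAZAP1 no alternative gave a ratio outside its counting interval. Counts of members moved with the fold threshold, given here with the share of all tested genes in brackets. For siDAZ1-1 against NC RNA, 43 members were higher by 1.1-fold (35.1%), 4 by 1.5-fold (7.10%) and 3 by 2-fold (1.58%), and 3, 0 and 0 were lower (35.9%, 8.73% and 1.88%). For siDAZ1-2 against NC RNA, 9 were higher by 1.1-fold (35.3%), and 46, 2 and 0 were lower by 1.1-fold, 1.5-fold and 2-fold (38.2%, 10.7% and 3.23%). For siDAZ1-1 against siDAZ1-2, 69, 10 and 1 were higher (36.8%, 9.64% and 2.78%), and 1 was lower by 1.1-fold (36.2%). With total library size, 0 members were past -0.32 for siDAZ1-1 against NC RNA (17.7%) and 4 past 0.32 for siDAZ1-2 (24.4%). The latter count was 1 at a mean of at least 5 CPM and 1 without the copies, settings with fewer genes. The median level per length of the members was 111 with the length of the longest coding transcript, against 49.3 with all exons.

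Of 2439 log2 ratios of named and listed genes under alternatives, 168 left their counting interval, and 40 of these turned their sign, 24 of them from an interval that held 0. The cause was not tested. With pseudogene reads added, RPL13A was 0.092 for siDAZ1-1 against NC RNA, RPS28 0.042 for siDAZ1-2 against NC RNA (a turn within its interval) and RPS7 0.12 for siDAZ1-1 against siDAZ1-2. With GC content and length corrected for, the ratio of siDAZ1-1 to NC RNA was RPL5 0.23, RPLP2 -0.078, AAMP -0.038, EEF2 -0.038, EIF3E 0.18, EIF3H 0.033 and SERBP1 0.00061. That of siDAZ1-1 to siDAZ1-2 was RPL8 -0.12, RPLP2 -0.095, AAMP -0.073, CDKN1A -0.047, EIF4EBP1 -0.19, SERBP1 0.086 and TSR2 -0.026. Of 108 medians of the other lists, 6 moved by more than the counting error of a member of the list.

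No paired analysis was possible because there is 1 library a condition, and leaving out a replicate was impossible for the same reason. The differences between these libraries therefore cannot be told apart from differences between single cultures or library preparations. Both comparisons with NC RNA share that library. Counting error sets the limit for members with few reads, such as RPS10, RPS28 and RPL39, and reads on near-identical pseudogenes limit those with many such copies.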
